A study of Homo sapiens with 3 samples.

Results

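Ribosome footprints of HEK293T cells expressing G245S p53 were compared with those of cells expressing wild-type (WT) p53. The comparison used 6 of the 9 libraries of the series, 3 dishes of each group, and covered the 19820 of 63241 genes that passed the count filter. G245S replaces a glycine of the p53 DNA-binding domain with serine and is classed among the hotspot changes that disturb the fold of that domain. Both groups were lines derived from HEK293T, cells of human embryonic kidney in which SV40 large T antigen, a protein that binds p53, is present. The labels describe lines that express the p53 construct stably, while the genotype field says transient, and the treatment field of the mutant names Lipo2000 transfection of the wt construct 24 hr before collection. According to the study's methods the constructs were introduced by lentivirus and cells were selected with puromycin. Groups were taken from the sample titles.

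p53 is a transcription factor that binds DNA as a tetramer and raises the transcription of genes for cell-cycle arrest, apoptosis, DNA repair and metabolism, as well as of MDM2, the ubiquitin ligase that degrades p53. Mutations of the DNA-binding domain weaken or abolish this activity. Ribosome profiling sequences the mRNA pieces that ribosomes protect from nuclease, so a gene's footprint count follows both how much of its mRNA is present and how densely ribosomes load it. The comparison asked how footprints differ between cells given the mutant construct and cells given the WT construct. Endogenous p53 was not replaced, and the study states that HEK293T cells suppress its function. Cells of both groups received cycloheximide for 2 min, and footprints came from micrococcal nuclease digests and the monosome fraction.

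The 6 libraries held 18719212 to 21620818 counts, and the biological coefficient of variation in the fit of all 9 libraries was 2.58%. Per the labels, the 3 dishes of a group were pooled at reverse transcription, so group and pool cannot be told apart, and p-values measure only the spread between dishes of a pool. By the study's methods the dishes of a group also came from the same cell line, so group and line cannot be told apart either. Dish 3 of each group stood further from dishes 1 and 2 (chi-square per degree of freedom 2.13 to 2.62) than those stood from each other (1.49 to 1.56). Markers of the HEK293 lineage summed to 1607 to 1631 CPM (counts scaled to a common library size) in WT and 1678 to 1689 CPM in G245S, and epithelial markers to 155 to 165 and 153 to 156 CPM. Of 5 blood markers 4 had at most 3 counts in every dish, as had 4 of 5 colon markers. Fibroblast markers summed to 47.3 to 50.3 CPM in WT and 42.2 to 48.1 CPM in G245S. No cells without a p53 construct and no spike-in were used here, so a change common to all genes is not measurable, and lost WT activity cannot be told apart from activity of the mutant.

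Large changes in G245S were more often decreases, most of all in well-counted genes, where known p53 targets made up most of the largest. At an adjusted p under 0.05 in edgeR's quasi-likelihood test, 4900 of 19820 genes (24.7%) were called, 2498 higher (12.6%) and 2402 lower (12.1%). Most called changes were small, with a median log2 fold change of 0.22 among genes called higher and -0.27 among genes called lower. Over all genes, 196 called genes were lower and 94 higher by more than 1 on the log2 scale, and 45 and 10 by more than 2. Among protein-coding genes with a mean of at least 100 counts, 47 fell by more than 1 on the log2 scale and 3 rose by more than 1. Of those 47 genes, 27 (57.4%) belonged to 7 lists of p53 targets, which also held 7 of the 10 genes that fell by more than 2. The lists were chosen with earlier results of these data known, so such shares are descriptions and not tests. At a limit of 0.25 the lists held 54 of 810 genes called lower, or 6.67%. In 95.3% of the genes called, the CPM ranges of the 3 G245S and the 3 WT dishes did not overlap, as against 37.4% of all genes tested. Against a minimum fold change of 1.2, 547 genes were called, 192 higher and 355 lower.

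**Figure D1:**
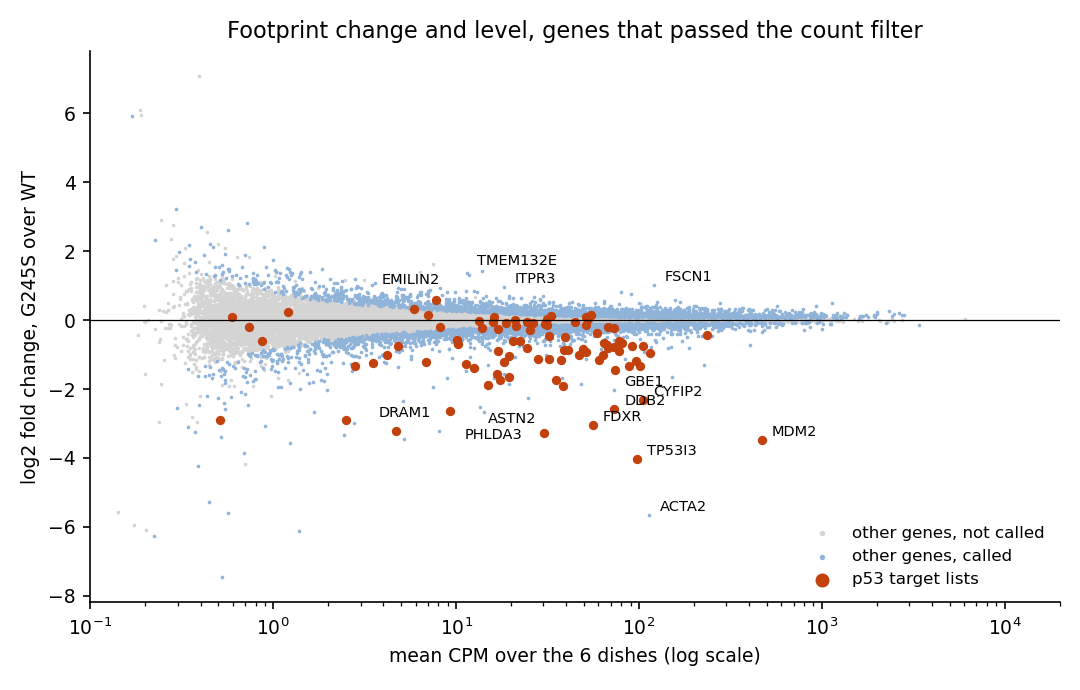
Log2 fold change of G245S over WT (vertical axis) against mean CPM over the 6 dishes (horizontal axis, log scale) for each of the 19820 genes tested, with called genes in blue, genes not called in grey and members of the p53 target lists in orange. Names are given for the genes with the largest changes and a mean of at least 100 counts; ACTA2, TP53I3 and MDM2 sit lowest among them, and no named increase exceeds TMEM132E at 1.36.

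The 7 p53 target lists were reduced as a body. Of their 98 members, 89 were tested. Of these, 67 were called lower (75.3%, against 12.1% of all genes), 2 higher and 20 were not called. Their median log2 fold change was -0.76 against -0.00 over all genes. Because earlier results of these data were known when the lists were chosen, the share describes these members and is not a test. Summed over the lists, footprints amounted to 5333, 5332 and 5365 CPM in the WT dishes and 2545, 2540 and 2528 CPM in the G245S dishes. Without MDM2, the most abundant member, the sums were 4452 to 4518 CPM and 2447 to 2472 CPM. The number called lower was 62 to 64 in fits that left out a dish, or dish 3 of all groups.

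Genes that feed back on p53 were among the most reduced, with 6 of 8 members lower and a median log2 fold change of -1.10. MDM2 had 815, 852 and 913 CPM in the WT dishes and 73.3, 75.7 and 81.5 CPM in the G245S dishes, or a log2 change of -3.48 (SE 0.0475, adjusted p 8.5e-16). No dish of G245S came near the range of WT for MDM2. PHLDA3, whose product restrains AKT signalling, fell from 56.5, 54.3 and 53.6 CPM to 6.50, 5.44 and 5.18 CPM, or a log2 change of -3.27 (SE 0.0781, adjusted p 3.2e-23). TP53INP1, a nuclear stress protein that acts with p53, fell by 1.73 on the log2 scale, from 26.6 ± 0.581 CPM (SD, n = 3 dishes) to 8.01 ± 0.542 CPM. AEN, an apoptosis-enhancing nuclease, fell by 1.33 on the log2 scale, from 146 ± 3.36 to 57.8 ± 1.59 CPM. The remaining ubiquitin ligases for p53 in the list were not called. RCHY1 measured 51.7 to 51.9 CPM in WT and 52.8 to 53.9 CPM in G245S (log2 fold change 0.04, adjusted p 0.50), and COP1 had overlapping dishes (log2 fold change -0.10, adjusted p 0.23).

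Cell-cycle arrest genes gave 7 of 9 members lower, none higher, and a median of -1.12. CDKN1A, which encodes the CDK inhibitor p21, had 63.5, 60.7 and 59.0 CPM in the WT dishes and 16.2, 16.5 and 15.8 CPM in the G245S dishes. The fitted log2 change was -1.92 (SE 0.0555, adjusted p 4.3e-21), with the dishes of each group within a few CPM of one another and far apart between groups. BTG2, an antiproliferative factor, fell from 56.7, 53.9 and 51.9 CPM to 16.4, 16.5 and 15.6 CPM (log2 fold change -1.74, adjusted p 1.1e-19). PLK3, a stress-responsive kinase, and E2F7, a repressor of E2F target genes, fell by 1.25 and 1.13 on the log2 scale. SFN, encoding 14-3-3 sigma, stood at 1.00 to 1.11 CPM in WT and 0.488 to 0.864 CPM in G245S and was not called (log2 fold change -0.61, adjusted p 0.19). PLK2, a related kinase, overlapped between groups, at a mean of 8.72 CPM in WT and 7.58 CPM in G245S (log2 fold change -0.21, adjusted p 0.22).

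Apoptosis genes were the most uniformly reduced list, with 12 of 13 tested members lower and a median of -0.96. EDA2R, a receptor of the TNF receptor family, fell from 4.91, 3.86 and 4.43 CPM to 0.596, 0.813 and 0.374 CPM, or a log2 change of -2.89 (SE 0.243, adjusted p 3.0e-10). PIDD1, the scaffold that activates caspase-2, fell from 22.8, 24.9 and 22.7 CPM to 6.34, 6.97 and 5.74 CPM (log2 fold change -1.89, adjusted p 8.2e-16). APAF1, the core of the apoptosome, had 105, 108 and 112 CPM in WT and 40.8, 39.0 and 38.7 CPM in G245S (log2 fold change -1.46, adjusted p 4.3e-21). In none of these genes did a G245S dish reach the lowest WT dish. The death receptor FAS fell by 1.39 on the log2 scale, from 18.1 ± 1.74 to 6.93 ± 0.975 CPM (SD, n = 3 dishes). BAX, which permeabilizes the mitochondrial outer membrane, was reduced less, from 152 ± 2.63 to 77.8 ± 1.65 CPM (log2 fold change -0.96, adjusted p 5.7e-19). The initiator caspase gene CASP10 was the exception, with 24.4 to 26.1 CPM in WT and 22.9 to 24.6 CPM in G245S (log2 fold change -0.07, adjusted p 0.45). TNFRSF10A, TNFRSF10C, TP53AIP1 and CASP1 did not pass the count filter.

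DNA repair and nucleotide supply genes divided by member, with 5 of 8 lower and a median of -0.47. DDB2, which recognizes ultraviolet lesions, fell from 129, 122 and 126 CPM to 20.9, 22.3 and 20.3 CPM, or a log2 change of -2.57 (SE 0.0480, adjusted p 1.1e-25). The translesion polymerase gene POLH fell by 1.17 on the log2 scale. XPC, which recognizes lesions for nucleotide excision repair, fell by 0.91, and the helicase gene ASCC3 fell by 0.75, each without overlap of dishes. POLK, another translesion polymerase, was not called at 42.7 to 47.7 CPM in WT and 42.9 to 44.6 CPM in G245S (log2 fold change -0.05, adjusted p 0.48). The same held for FANCC of the Fanconi pathway (log2 fold change 0.03, adjusted p 0.77).

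Redox and metabolism targets included the second-largest decrease among the genes named. TP53I3, a quinone oxidoreductase homologue, fell from 190, 182 and 179 CPM to 11.6, 10.8 and 11.3 CPM, or a log2 change of -4.03 (SE 0.0489, adjusted p 2.2e-30). FDXR, which passes electrons to ferredoxin in mitochondria, had 103, 97.1 and 98.1 CPM in WT and 12.7, 11.7 and 11.8 CPM in G245S (log2 fold change -3.04, adjusted p 1.1e-25). The dishes of both genes were separated by several fold. Of 16 members tested 13 were lower and 1 was higher, with a median of -0.93. PANK1, a kinase of coenzyme A synthesis, fell by 1.64 and ACER2, an alkaline ceramidase, by 1.34 on the log2 scale. Sestrin 2, encoded by SESN2, fell by 0.71, from 83.4 ± 5.14 to 50.9 ± 2.97 CPM. Neither HMOX1, encoding heme oxygenase 1 (log2 fold change 0.08, adjusted p 0.23), nor the lysosomal fucosidase gene FUCA1 (-0.09, adjusted p 0.43) was called.

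Secretion, membrane and autophagy targets were the least reduced of these lists, with 9 of 17 lower, 1 higher and a median of -0.20, which was -0.11 without dish 3 of all groups. SPATA18, linked to mitochondrial quality control, fell from 8.59, 8.24 and 8.60 CPM to 1.46, 0.610 and 0.700 CPM, or a log2 change of -3.21 (SE 0.243, adjusted p 2.0e-09). DRAM1, a lysosomal membrane protein of autophagy, fell from 15.4, 18.3 and 14.0 CPM to 2.60, 2.34 and 2.76 CPM (log2 fold change -2.63, adjusted p 1.3e-14). PLTP, which transfers phospholipids between lipoproteins, fell from 132, 129 and 117 CPM to 51.7, 50.7 and 48.4 CPM (log2 fold change -1.33, adjusted p 2.4e-19). The WT dishes of these genes lay above the G245S dishes throughout. GDF15, a secreted stress factor, was called lower from 0.791 to 1.14 CPM in WT, with at most 3 counts in each G245S dish. TNFAIP8 and TMEM63B overlapped between groups and were not called (adjusted p 0.74 and 0.93).

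The list of other targets had 15 of 18 members lower and a median of -0.71. CYFIP2, part of the WAVE complex that drives actin branching, fell from 181, 181 and 165 CPM to 34.0, 37.1 and 34.4 CPM, or a log2 change of -2.32 (SE 0.0460, adjusted p 3.7e-24). ANKRA2, an ankyrin-repeat adaptor, fell by 1.55 on the log2 scale. FBXW7, the substrate receptor of a ubiquitin ligase, fell by 1.21. RPS27L, a paralogue of ribosomal protein S27, fell from 135 ± 9.26 to 58.7 ± 2.70 CPM, and its value is uncertain to the extent that reads were shared with close copies. ARHGEF3 and IER5 were not called (adjusted p 0.43 and 0.15).

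**Figure D2:**
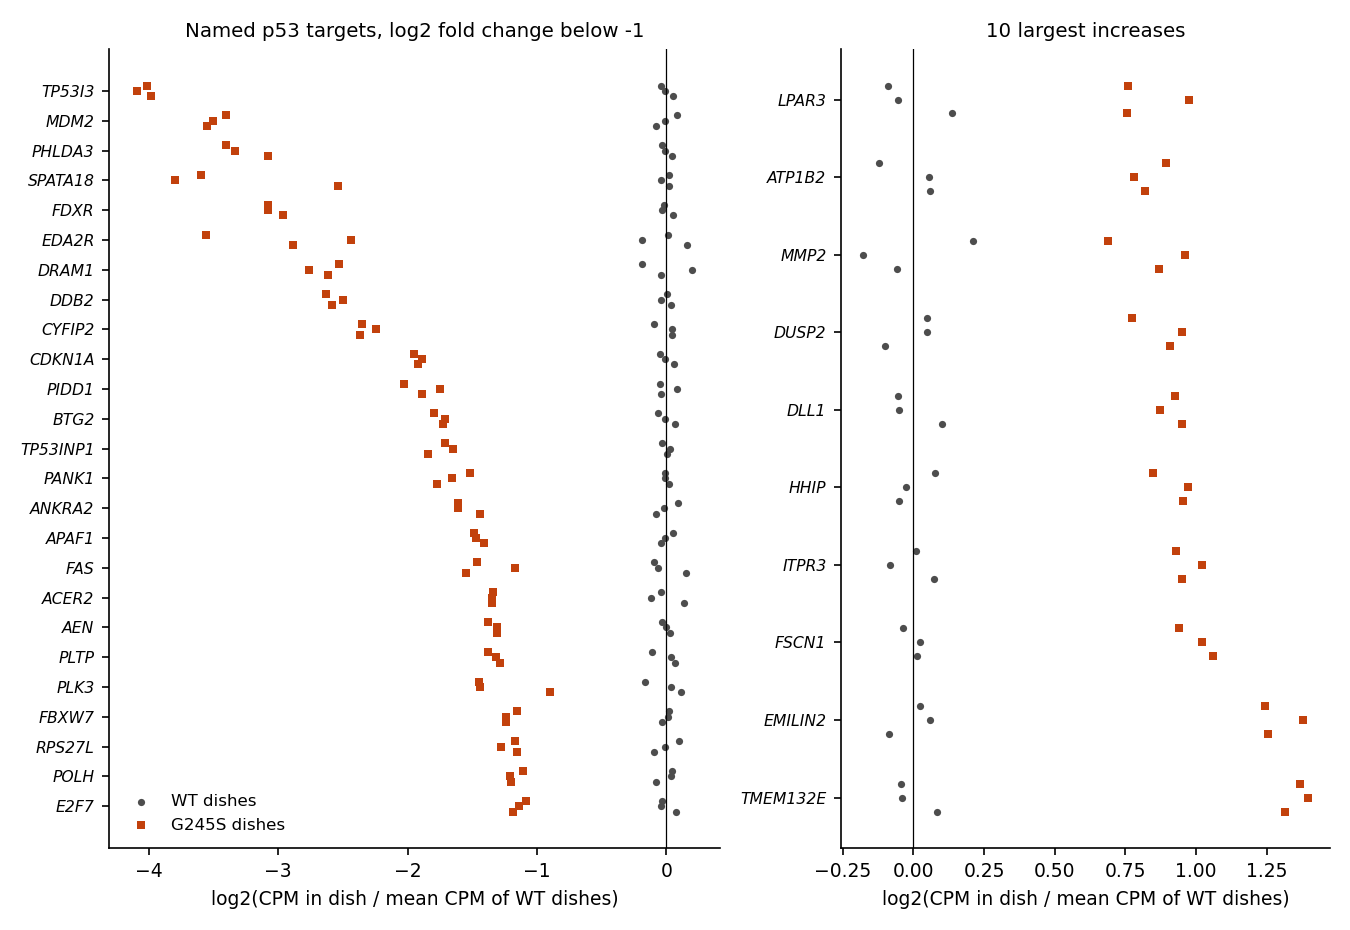
Each point is the log2 ratio of the CPM in 1 dish to the mean CPM of the 3 WT dishes, with WT dishes as grey circles and G245S dishes as orange squares. Left, named p53 targets with a log2 fold change below -1, without GDF15, which had at most 3 counts in each G245S dish; right, the 10 largest increases. The G245S dishes of each gene lie apart from its WT dishes, by up to 4.03 on the log2 scale in the fit for TP53I3 on the left and up to 1.36 for TMEM132E on the right.

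Sequence matches to the p53 consensus near these genes are shown as possible p53 sites, whose binding was not tested, and because a match did not go with a change in each case. The search covered 5000 bases on each side of the start of the canonical transcript in GRCh38 and took 2 adjoining decamers of the p53 consensus with both cores intact and at most 2 mismatches elsewhere; the cores are in capitals, and sequences are given 5′ to 3′ on the strand of the gene. Such a match was found for 24 of 89 tested members of the p53 target lists (27.0%), 17 of 111 protein-coding genes called lower by at least 2-fold (15.3%), 4.80% of genes not called and 684 of 13615 tested protein-coding genes (5.02%). Genes called higher by more than 0.5 on the log2 scale had a match in 2.80%. Of the 10 largest decreases 1 had a match, as had 1 of the 10 largest increases. The match of CDKN1A (chr6:36676449-36676468) lay 2256 bases upstream of the canonical start and that of BTG2 (chr1:203303642-203303661) 1868 bases upstream. Those of SPATA18 (chr4:52051957-52051976), DRAM1 (chr12:101880194-101880213) and FAS (chr10:88991309-88991328) lay in intron 1, and that of AEN (chr15:88621306-88621325) 25 bases upstream. PLK2 (chr5:58462274-58462293, minus strand) and MMP2 (chr16:55477545-55477564) carried matches without a mismatch, 2198 and 1644 bases upstream, although PLK2 was not called and MMP2 was called higher. MDM2, TP53I3 and PHLDA3 had no match of this kind in the window, which says only that these letters were not found there.
CDKN1A: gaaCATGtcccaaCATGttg
BTG2: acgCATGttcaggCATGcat
SPATA18: ggaCATGtgtgtaCATGccc
DRAM1: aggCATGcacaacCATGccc
FAS: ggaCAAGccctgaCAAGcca
AEN: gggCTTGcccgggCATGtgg
PLK2: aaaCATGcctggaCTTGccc
MMP2: agaCAAGcctgaaCTTGtct

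The largest decrease of all named genes was in ACTA2, smooth muscle actin, which was not on a p53 list. It had 226, 222 and 220 CPM in the WT dishes and 4.88, 4.27 and 4.16 CPM in the G245S dishes, or a log2 change of -5.65 (SE 0.0645, adjusted p 2.2e-30). ACTA2 (minus strand of chromosome 10, 88935074 to 88991339) overlaps FAS on the opposite strand, and the match in intron 1 of FAS lies within its annotated span. FAS itself had 16.9 to 20.1 CPM in WT, well below ACTA2. Whether counting used strand is not given in the sources used here. ASTN2, an astrotactin of neuronal migration, fell from 23.5, 23.1 and 22.1 CPM to 3.09, 4.07 and 4.76 CPM (log2 fold change -2.51, adjusted p 7.5e-17). GBE1, the glycogen branching enzyme, fell from 115, 118 and 120 CPM to 29.3, 26.7 and 30.0 CPM (log2 fold change -2.04, adjusted p 3.8e-24). Both genes overlap others on the opposite strand, and their dishes did not overlap between groups.

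Increases were smaller and came from several functions, as shown by the 10 largest among genes with a mean of at least 100 counts. TMEM132E, a transmembrane protein of neural tissue and inner ear, rose from 6.80, 6.23 and 6.23 CPM to 16.0, 16.9 and 16.6 CPM. It had a log2 change of 1.36 (SE 0.0884, adjusted p 1.1e-12). EMILIN2, an elastic-fibre matrix glycoprotein, rose from 6.40, 7.08 and 6.91 CPM to 16.2, 17.7 and 16.1 CPM (log2 fold change 1.29, adjusted p 1.8e-11). FSCN1, which bundles actin filaments, was the most abundant of the 10 and rose from 80.9, 81.4 and 78.1 CPM to 167, 163 and 154 CPM (log2 fold change 1.01, SE 0.0353, adjusted p 5.4e-19). In all 3 genes the lowest G245S dish lay above the highest WT dish. ITPR3, a calcium channel of the endoplasmic reticulum, rose by 0.97 on the log2 scale, from 12.3 ± 0.669 to 24.1 ± 0.816 CPM. HHIP, which binds hedgehog ligands, rose by 0.92, the Notch ligand gene DLL1 by 0.91, the phosphatase gene DUSP2 by 0.88, the matrix protease gene MMP2 by 0.84, the sodium pump subunit gene ATP1B2 by 0.83 and the lysophosphatidic acid receptor gene LPAR3 by 0.83, with adjusted p between 5.0e-08 and 5.7e-06 for HHIP, DLL1, DUSP2 and MMP2.

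Genes of the integrated stress response (ISR), in which the factor ATF4 raises amino acid supply, were higher where they serve amino acid synthesis and transport. Of the synthesis enzymes 10 of 12 were higher and none lower (median 0.27). Of the transporters 10 of 11 were higher and none lower (median 0.36). Both are read against 27.6% higher among genes of at least 50 CPM, while the share over all genes was 12.6%. SLC7A5, the large neutral amino acid transporter, rose from 68.6, 68.7 and 63.4 CPM to 114, 119 and 106 CPM (log2 fold change 0.75, SE 0.0423, adjusted p 8.6e-14). ALDH1L2, an enzyme of mitochondrial folate metabolism, rose by 0.67 on the log2 scale. ASNS, asparagine synthetase, rose from 134, 138 and 144 CPM to 195, 195 and 205 CPM (log2 fold change 0.52, adjusted p 2.3e-13). The G245S dishes of both SLC7A5 and ASNS were above the WT dishes. The cystine transporter gene SLC7A11 rose by 0.63, SLC7A3 by 0.54, SHMT2 of serine breakdown by 0.40 and PYCR1 of proline synthesis by 0.39. SLC6A9, a glycine transporter, rose by 0.53 but was not called without WT dish 2 (adjusted p 0.053) or G245S dish 1 (adjusted p 0.052). ALDH18A1, GPT2 and SLC1A4 were not called.

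ISR regulators were mixed, with 6 of 17 higher and 3 lower (median 0.19), against 12.6% and 12.1% of all genes. ATF4 itself rose by 0.27 on the log2 scale, while ATF5 fell by 0.47 and ATF3 by 0.32. CHAC1, which degrades glutathione, rose by 0.89 from 1.37 to 2.18 CPM in WT to 3.05 to 3.96 CPM in G245S, and STC2, a secreted glycoprotein, rose by 0.49. NUPR1, a stress regulator at 0.581 to 0.686 CPM in WT, had a log2 fold change of 1.08 that was not called without G245S dish 1 (adjusted p 0.084). SESN2, which is on this list and on the p53 list, was lower as given above. DDIT4 and PPP1R15B were not called. Of the cytosolic aminoacyl-tRNA synthetases, 17 of 20 were higher and 1 lower (median 0.14), against 27.6% higher among genes of at least 50 CPM. IARS1 of isoleucine rose from 477, 480 and 499 CPM to 655, 637 and 650 CPM (log2 fold change 0.42, adjusted p 1.0e-13). VARS1, MARS1 and GARS1 rose by 0.35, 0.33 and 0.30, while HARS1 was not called.

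Chaperone lists held small changes, against 27.6% higher and 19.5% lower among genes of at least 50 CPM. Of 22 endoplasmic reticulum genes 6 were higher and 3 lower (median 0.02), and the chaperones with the most footprints were flat: HSPA5 had 1213 to 1270 CPM in WT and 1223 to 1252 CPM in G245S (log2 fold change -0.00, adjusted p 0.93), and HSP90B1 had a log2 fold change of 0.01. ERN1, the sensor kinase IRE1, rose by 0.47, HERPUD1 of protein degradation by 0.23 and the transcription factor gene XBP1 by 0.21, while SEL1L fell by 0.14, a call lost without WT dish 3 (adjusted p 0.15) or G245S dish 2 (0.079). The list of cytosolic heat shock genes also held HSPD1 and HSPE1 of the mitochondrial chaperonin. It had 10 of 19 members higher, HSPD1 and HSPE1 among them, and 2 lower (median 0.07). There were 6 higher without WT dish 2 and 1 lower in each fit without a dish. HSPB1, a small heat shock protein, rose by 0.50 and HSPD1, the mitochondrial chaperonin, by 0.25. HSP90AB1 rose from 2291, 2296 and 2376 CPM to 2674, 2609 and 2608 CPM (log2 fold change 0.18, adjusted p 3.5e-07). HSPA1B and DNAJA1 overlapped between groups and were not called.

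Lipid and sugar metabolism lists held more calls higher than lower, where 27.6% of genes of at least 50 CPM were higher and 19.5% lower. Cholesterol and fatty acid synthesis genes were higher in 18 of 28 and lower in 2 (median 0.17). SREBF1, encoding the regulator SREBP1, rose from 33.2, 34.5 and 35.8 CPM to 49.6, 46.6 and 48.7 CPM (log2 fold change 0.49, adjusted p 1.3e-08). FASN, fatty acid synthase, rose from 819, 806 and 781 CPM to 1100, 1066 and 1011 CPM (log2 fold change 0.40, adjusted p 2.7e-12), and ACACA, which makes malonyl-CoA, rose by 0.38. The sterol reductase gene TM7SF2 went the other way and fell by 0.86, from 21.4 ± 2.19 to 11.8 ± 0.715 CPM. FDPS and IDI1 were not called. Glycolysis genes were higher in 13 of 24 and lower in none (median 0.14). SLC16A1, a lactate transporter, rose by 0.29, PFKP by 0.24 and PGAM1 by 0.23, and SLC2A3, a glucose transporter, by 0.56, a call lost without WT dish 2 (adjusted p 0.054) or without dish 3 of all groups (0.056). GAPDH measured 2701 to 2760 CPM in WT and 2691 to 2851 CPM in G245S and was not called, nor was PGK1.

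Hypoxia genes gave 5 of 17 higher and 1 lower, against 12.6% and 12.1% of all genes, with a median of -0.05 that became 0.01 after removal of the shift with coding length and GC content. Carbonic anhydrase CA12 rose by 0.60, the oxygen sensor gene EGLN3 by 0.47 and the lysyl oxidase gene LOX by 0.41, and the mitophagy receptor gene BNIP3L fell by 0.42. FAM162A and KDM3A were not called. NRF2 pathway genes, which counter oxidants, had 8 of 21 higher and 3 lower (median 0.08), or 1 lower without WT dish 2, against 27.6% and 19.5% of genes of at least 50 CPM. Besides SLC7A11, glutathione reductase GSR rose by 0.21, whereas the quinone reductase gene NQO1 fell by 0.32. AKR1C1, at 1.19 to 2.06 CPM in WT, fell by 1.14, a call lost without WT dish 2 (adjusted p 0.063). TALDO1 and PGD of the pentose phosphate pathway were not called.

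E2F and DNA replication genes were more often higher than lower, 21 and 5 of 39 (median 0.10), against 27.6% higher and 19.5% lower among genes of at least 50 CPM. MCM6, a subunit of the replicative helicase, rose from 323, 321 and 327 CPM to 414, 404 and 417 CPM (log2 fold change 0.35, adjusted p 7.5e-12), and MCM3 rose by 0.32. TYMS, thymidylate synthase, was lower, from 215, 203 and 206 CPM to 138, 133 and 134 CPM (log2 fold change -0.62, adjusted p 2.7e-15), and DNA ligase 1, encoded by LIG1, fell by 0.56. These members of the list thus moved in opposite directions without overlap of dishes. The list of mitotic genes held 10 of 40 higher and 7 lower with a median of 0.00, shares near those of all genes at this level. Without G245S dish 2 there were 5 higher, without WT dish 1 or WT dish 2 there were 6, and without WT dish 3 or G245S dish 1 there were 4 lower. ASPM rose by 0.16, HMMR fell by 0.23, ANLN by 0.19 and CENPE by 0.18, and CCNB1, cyclin B1, had 577 to 614 CPM in WT and 587 to 599 CPM in G245S (adjusted p 0.96). CDC6, RRM1 and TOP2A were not called.

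Ribosome biogenesis genes were higher in 30 of 45 and lower in 2 (median 0.13), against 27.6% higher and 19.5% lower among genes of at least 50 CPM. Fits without a dish called 24 to 33 higher and 0 to 2 lower. HEATR1, of the small subunit processome, rose from 230, 227 and 232 CPM to 315, 324 and 329 CPM (log2 fold change 0.49, SE 0.0264, adjusted p 1.3e-14). MYBBP1A rose by 0.33, UTP20 by 0.32 and UTP4 by 0.30, while GNL3 and NCL, nucleolin, were not called. Proteasome genes, read against the same shares, were higher in 15 of 35 and lower in 2 (median 0.05). PSMD1 rose by 0.25, PSME4 by 0.21 and PSMC5 by 0.16, and PSME1, of the interferon-inducible activator, fell by 0.23. PSMB1 and PSMA3 were not called.

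**Figure D3:**
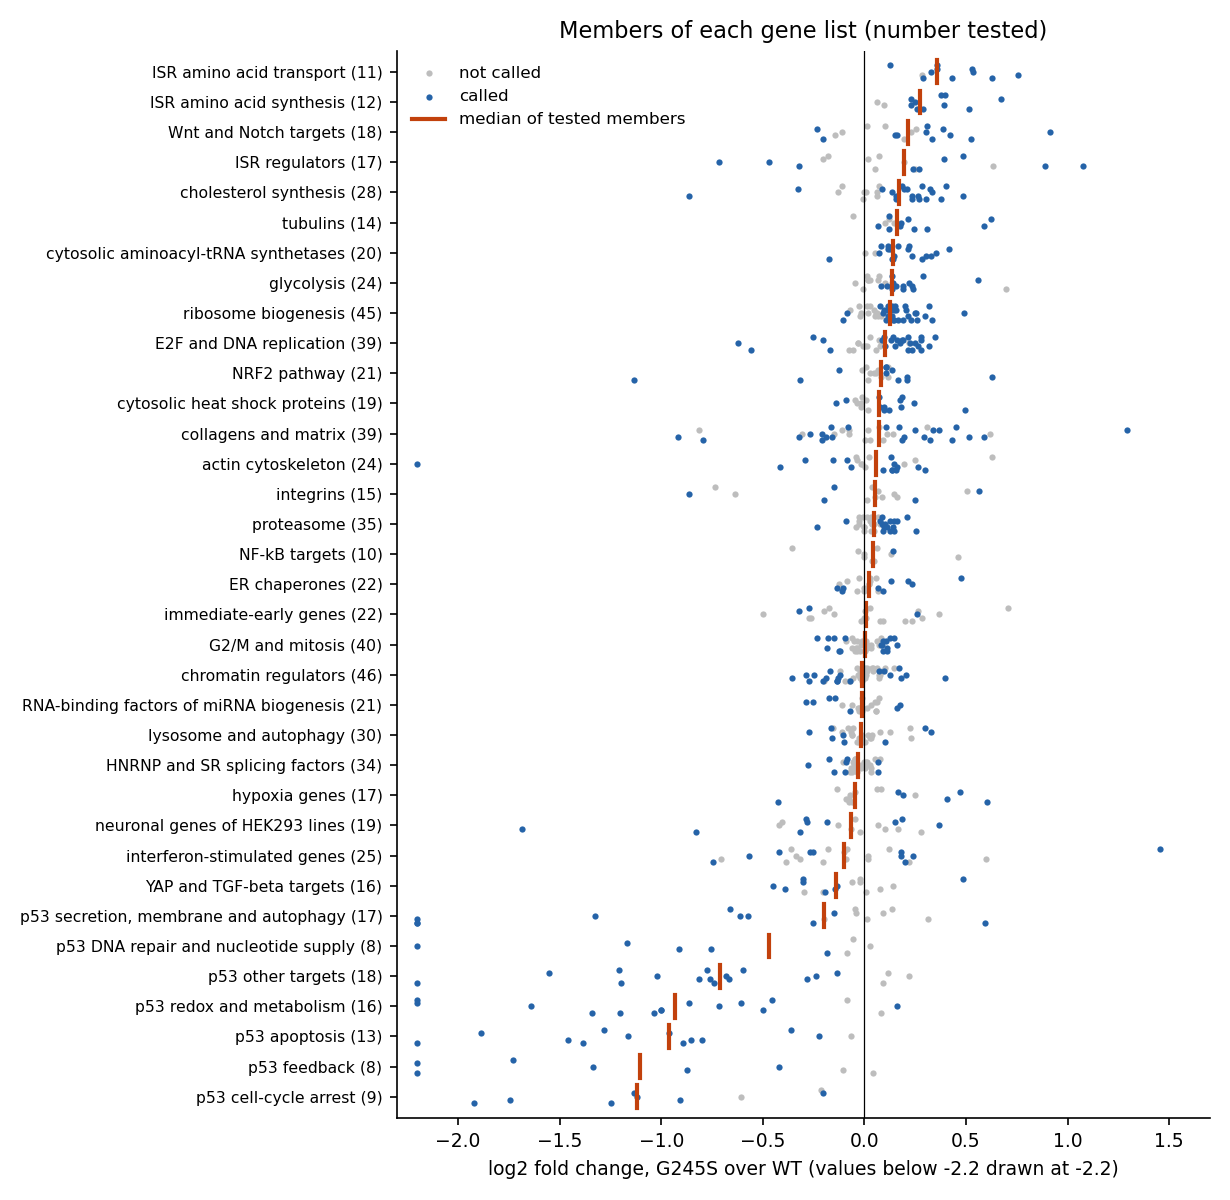
Log2 fold change of G245S over WT for each tested member of each gene list, with called members in blue, members not called in grey and the list median as an orange bar; the number tested is in parentheses, and values below -2.2 are drawn at -2.2. The 7 p53 target lists have the lowest medians drawn, from -1.12 to -0.20, the last of which was -0.11 without dish 3 of all groups, where the interferon-stimulated and neuronal lists both had -0.13, and the 2 ISR lists of amino acid transport and synthesis the highest, 0.36 and 0.27.

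Cytoskeleton lists are read against 27.6% higher and 19.5% lower among genes of at least 50 CPM. Tubulin genes were higher in 10 of 14 and lower in none (median 0.16). TUBB2B, a beta tubulin of neural tissue, rose from 123, 123 and 133 CPM to 194, 188 and 188 CPM (log2 fold change 0.59, adjusted p 2.2e-14). TUBA4A rose by 0.62, TUBB2A by 0.31 and TUBB6 by 0.24, TUBB4B and TUBD1 were not called, and values of these paralogues depend on how shared reads were divided. In the actin list 9 of 24 were higher and 6 lower (median 0.06). FLNA, filamin A, rose by 0.30, with 485 to 512 CPM in WT and 602 to 624 CPM in G245S. The light chain gene MYL6 fell by 0.29, and MYH9 and PFN1 were not called.

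Among collagens and matrix genes 14 of 39 were higher and 10 lower (median 0.07), where 12.6% of all genes were higher and 12.1% lower, the shares that also bear on the next 3 lists. AGRN, agrin of basement membranes, fell from 142, 145 and 133 CPM to 75.7, 74.3 and 72.3 CPM (log2 fold change -0.92, adjusted p 1.6e-17). COL4A5, a basement membrane collagen, fell from 233, 244 and 240 CPM to 136, 142 and 136 CPM (log2 fold change -0.80, adjusted p 2.3e-18). COL9A3 rose by 0.59 besides EMILIN2, and LAMC1 and COL6A1 were not called. Of 15 integrin genes 2 were higher and 3 lower, ITGA3 falling by 0.86 and ITGA4 rising by 0.57. ITGA1 and ITGAE were called at adjusted p 0.039 and 0.028 but not in most fits without a dish. Targets of YAP and TGF-beta signalling were lower in 7 of 16 and higher in 1 (median -0.14), with AMOTL1 down by 0.45, ID2 by 0.39 and AJUBA by 0.30, and TGFB2 up by 0.48; there were 4 lower without WT dish 3, 3 without G245S dish 3 and 2 without dish 3 of all groups, and fits without a dish did not each hold the calls of AJUBA and TGFB2. Wnt and Notch targets were higher in 9 of 18 and lower in 2 (median 0.21). NOTCH1, the receptor, rose from 36.7, 33.4 and 36.2 CPM to 50.2, 54.6 and 48.4 CPM (log2 fold change 0.52, adjusted p 1.2e-08), the stem cell receptor gene LGR5 rose by 0.42 and NRARP, a Notch feedback gene, by 0.39.

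The next 4 lists are read against 27.6% higher and 19.5% lower among genes of at least 50 CPM. HNRNP and SR splicing factors had 2 of 34 higher and 6 lower (median -0.03), or 1 to 5 higher in fits without dishes, with SRSF8 down by 0.28, HNRNPUL2 by 0.17 and HNRNPH2 by 0.15, while HNRNPA2B1 and HNRNPU, at means of 2496 and 2383 CPM in WT, were not called. RNA-binding factors of microRNA biogenesis had 2 of 21 higher and 5 lower (median -0.01), or 1 to 3 lower in fits without a dish. DICER1, which cuts microRNA precursors, rose by 0.18 on the log2 scale, a call lost without dish 3 of all groups (adjusted p 0.062), and TNRC6B, of the silencing complex, fell by 0.25. TARBP2 and AGO4 fell by 0.17 and 0.29, calls that did not hold in each fit without a dish, and the helicase genes DDX5 and DDX17 were not called. Chromatin regulators had 7 of 46 higher and 12 lower, or 4 to 7 higher and 8 to 12 lower in fits without dishes, with DNMT3B up by 0.39, NSD1 down by 0.36, CHD2 by 0.29 and DNMT3A by 0.27. Lysosome and autophagy genes had 3 of 30 higher and 5 lower, or 3 lower without G245S dish 1 or G245S dish 2, ATG9A rising by 0.33, and NPC2 and PSAP falling by 0.27 and 0.16.

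Neuronal genes that HEK293 lines express had 3 of 19 higher and 6 lower (31.6%), against 12.6% and 12.1% of all genes. SYT1, a calcium sensor of synaptic vesicles, fell from 26.1, 24.5 and 23.0 CPM to 8.24, 6.76 and 7.89 CPM (log2 fold change -1.69, SE 0.0863, adjusted p 4.2e-15). The neurofilament gene NEFL fell by 0.32 and MAP1B, of microtubules, rose by 0.37, whereas NEFM and NCAM1 were not called. Interferon-stimulated genes, read against the same shares, had 5 of 25 higher and 5 lower, or 1 to 3 higher and 3 to 5 lower in fits without a dish. OAS3 fell by 0.74, IRF1 by 0.42 and IFIH1 by 0.57, the last call being lost without WT dish 1 (adjusted p 0.060), WT dish 3 (0.057) or G245S dish 1 (0.073). IFI27 had 0.149 to 0.158 CPM in WT and 0.356 to 0.514 CPM in G245S, and its call was lost in every fit without a dish; STAT2 was not called. Of NF-kB targets 1 of 10 was called, the superoxide dismutase gene SOD2 rising by 0.14. Immediate-early genes were called in 3 of 22, MYC rising by 0.26, ATF3 falling by 0.32 and JUN by 0.27. Over all genes 24.7% were called in either direction, a larger share than in these last lists.

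Small shifts followed coding length across 10767 protein-coding genes with a mean of at least 100 counts. In the quintile with the shortest coding regions (27 to 738 nucleotides of the canonical transcript) the median log2 fold change was -0.05, with 12.3% of genes called higher and 27.2% lower. In the longest quintile (2574 to 26775 nucleotides) the median was 0.02, with 22.5% higher and 14.1% lower. Among 251 genes with under 300 coding nucleotides, 45.8% were lower and 4.38% higher. In each G245S dish the shortest quintile stood below the WT mean, by medians of -0.038, -0.052 and -0.057 on the log2 scale, while the WT dishes had medians of -0.0049 to 0.0036. Whether cells, pools or footprint size selection produced the trend was not tested. With it removed per library, in a fit of protein-coding genes only, 5079 genes were called, 2915 higher and 2164 lower. The main fit, which covered all gene classes, called 2088 of 13615 protein-coding genes higher and 2062 lower. With the trend removed the median of the p53 lists was -0.73.

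**Figure D4:**
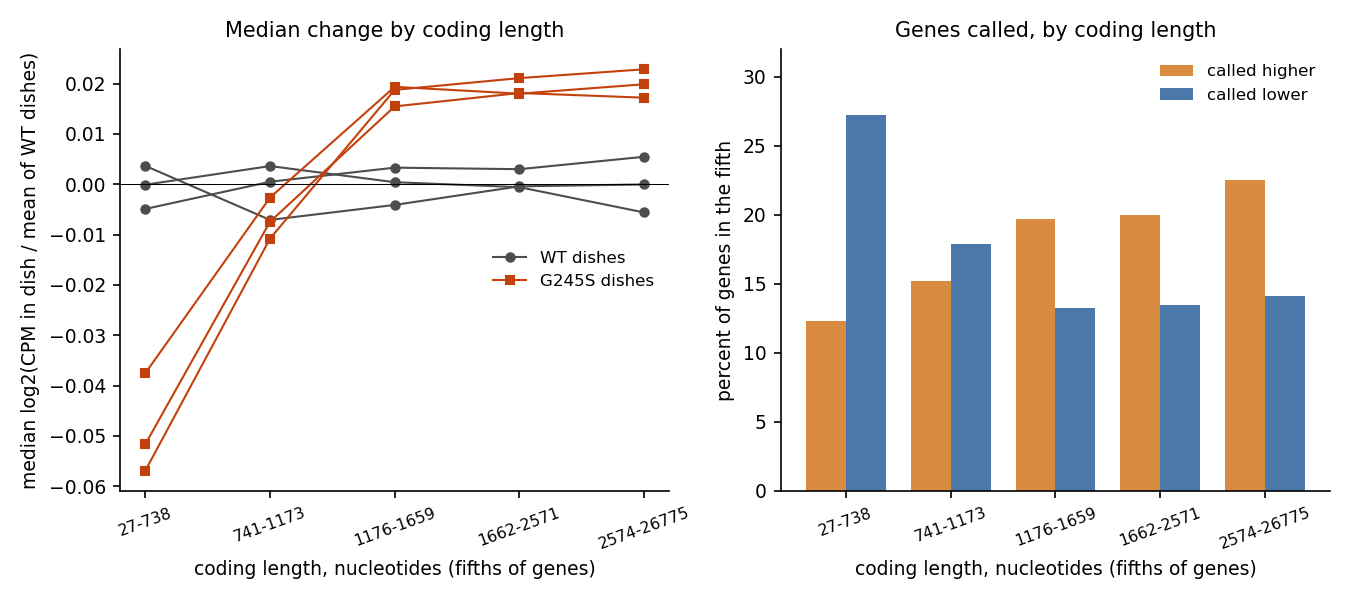
Genes in quintiles of coding length (horizontal axis, nucleotides). Left, median log2 ratio of each dish to the mean of the WT dishes, with WT dishes in grey and G245S dishes in orange; right, percent of genes called higher (orange) and lower (blue). The 3 G245S lines lie below the WT lines in the shortest quintile and above them in the 3 longest, and the share called lower is 27.2% in the shortest quintile and 14.1% in the longest.

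The RNA motif GGCTGG, written as DNA, which the study associated with p53 binding to RNA, was set against footprint change as a description, with no test. On the transcript strand, 47.6% of these genes had at least 1 copy in the annotated 3′ untranslated region of the canonical transcript. Median log2 fold changes were -0.0056 without a copy, 0.0021 with 1, -0.0050 with 2 and 0.0048 with 3 or more copies. Within each of 5 quintiles of 3′ untranslated region length the median with the motif was above that without it, at 0.0082 and 0.0009, 0.010 and -0.0084, 0.0041 and -0.0080, -0.0012 and -0.0088, and -0.0036 and -0.0078 from the shortest to the longest. Calls in both directions were fewer with the motif: 15.9% of genes with it were lower and 16.9% higher, against 18.4% and 18.9% without it. Quintiles of that length itself had medians of -0.0052 to 0.0009.

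Of 1678 long noncoding RNAs tested, 32 were called higher (1.91%) and 177 lower (10.5%), against 12.6% and 12.1% of all genes. Their median was -0.17, and for the 331 with at least 100 counts the median was -0.06. They held fewer counts than coding genes, so the shares over all genes are not at a like level. Under 100 counts, 14 of 1347 were higher and 118 lower, against 156 and 209 of 2848 protein-coding genes. At 100 counts or more, 18 of 331 were higher and 59 lower, against 17.9% and 17.2% of protein-coding genes. LNCTAM34A, transcribed opposite to the host gene of miR-34a, fell from 9.23, 10.5 and 8.71 CPM to 0.759, 0.661 and 1.12 CPM (log2 fold change -3.46, adjusted p 1.5e-14). TYMSOS, opposite to TYMS, fell from 23.3, 25.1 and 25.5 CPM to 3.79, 3.97 and 3.83 CPM (log2 fold change -2.67, adjusted p 1.8e-18). PURPL and TP53TG1, both known as p53-regulated transcripts, fell by 0.68 and 0.66. These noncoding genes were chosen after their values were seen, and antisense reads could not be assigned where strand is unknown. Processed pseudogenes had more calls higher than lower, 298 of 3451 higher (8.64%) and 113 lower (3.27%), and share sequence with their parent genes. At a mean of at least 100 counts, none of 33 mitochondrially encoded features was higher and 9 were lower (median -0.09). Medians of the nuclear chromosomes other than Y lay between -0.03 and 0.03. The mitochondrial features included transfer RNAs, which are not translated. Of 22 mitochondrial transfer RNAs tested at any count, none was higher and 5 were lower (median -0.18).

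Footprints of G245S were close to those of R273H, the mutant of the third group, which changes a residue that contacts DNA. In the direct test 513 of 19820 genes (2.59%) were called. Of the 89 p53 list members tested 2 were called, both less reduced in G245S. DDB2 had 21.2 ± 1.00 CPM in G245S and 14.8 ± 0.908 CPM in R273H (SD, n = 3 dishes), a log2 difference of 0.51 (SE 0.0643, adjusted p 4.4e-05). BAX had 77.8 ± 1.65 and 68.1 ± 1.91 CPM, a log2 difference of 0.19 (adjusted p 0.0027).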

How the data were processed

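Footprint libraries of HEK293T cells were analysed from the expected counts per gene deposited by the authors, which are estimates that need not be whole and were rounded to whole numbers here. The submitters' processing notes name FastQC, Trim Galore, cutadapt, UMI-tools, STAR, SAMtools, MultiQC and GRCh38, while the counting tool, annotation release and strand setting are not given in the sources used here. No per-sample column was left unmapped. Libraries were scaled by TMM in edgeR 4.0.16 (R 4.3.3), genes were filtered with filterByExpr, and all 9 libraries were fitted with glmQLFit (robust, 6 residual degrees of freedom). G245S was tested against WT with the two-sided glmQLFTest, and genes with a Benjamini-Hochberg adjusted p under 0.05 are called. CPM use the TMM-scaled library sizes. The code was tested on simulated data.

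Named genes are the 10 largest called protein-coding changes in each direction with a mean of at least 100 counts and no overlap of dishes, up to 4 called and 2 uncalled members of each list, and p53 list members called against R273H. ATF4, ATF5, HSPE1 and single cell type markers are given outside this rule. The comparison and the lists were chosen with earlier results of these data known. Alternatives changed the normalization, the filter, the libraries fitted, the test (DESeq2 1.42.0, or a minimum fold change of 1.2), a dish block, a coding length and GC trend, and the dishes included. Coordinates, coding lengths and strands are from GENCODE on GRCh38. Values of overlapping genes, antisense genes and near-identical copies are uncertain. Footprints of the p53 gene itself and of a few other genes that the naming rule selects are not reported here.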

Additional observations from a re-analysis of the deposited data

Results flagged for a closer look

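The effects of G245S and R273H, each against WT, differed in the direct edgeR quasi-likelihood test (adjusted p under 0.05) for 18 of the 214 named genes. Over all genes tested the share was 513 of 19820 (2.59%), and named genes were picked for large changes or many footprints. Log2 differences are given as G245S minus R273H. Footprints were higher in G245S for DDB2 (0.51), DDIT4 (0.23), NOTCH1 (0.21), BAX (0.19), SREBF1 (0.19), HSPA1B (0.18), FLNA (0.18), LIG1 (0.14), LAMC1 (0.13), HSP90AB1 (0.11), MYBBP1A (0.10), PFN1 (0.095) and TUBB4B (0.094). They were lower in G245S for ANLN (-0.30), GBE1 (-0.19), SKIL (-0.19), KDM3A (-0.15) and MYC (-0.14). Groups of 3 dishes were not screened for single outlying dishes.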

How the results depend on the processing

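The number of genes called was 3564 with DESeq2 (1892 higher and 1672 lower) and 3899 to 4368 in edgeR fits without 1 dish (1990 to 2336 higher, 1899 to 2032 lower). Against a minimum fold change of 1.2 it was 547, with 192 higher and 355 lower. Leaving out dish 3 of all groups, which was chosen after seeing the data, gave 4276 (2314 higher and 1962 lower). Upper-quartile scaling gave 2793 higher and 2182 lower. Of 214 named genes 146 were called, and 80 kept direction and call under all 16 alternatives; 15 lost the call in a fit with dishes left out. PFN1, at -0.01 and not called, turned to 0.059 (adjusted p 0.026) once the coding length and GC trend was removed. Deviations of same-numbered WT and G245S dishes correlated at 0.156, 0.0609 and 0.229 over 12656 genes, each the best match of its dish, but not all above 0.1, so the numbers were not taken to pair the dishes. With the dish number as a replicate block 5779 genes were called, 2965 higher and 2814 lower. No spike-in was used, so a change shared by all genes is not measurable.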
